A study of Mus musculus with 52 samples.

Results

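The genes described here remove calcium from the cytosol, release it from internal stores or read its level. They are 9 of the 23697 genes listed in each of 6 deposited tables, and they were chosen by symbol, not by any measured value. The symbols are Atp2a2, Atp2b1, Atp2b2, Slc8a1, Slc8a2, Ryr2, Itpr1, Camk2a and Camk2b, and each has 1 row per table. The study profiled RNA of mouse spinal cord in mice with a mutant SOD1 transgene, used as a model of the motor neuron disease ALS, beside non-transgenic (Non-Tg) mice. RNA of motor neurons, astrocytes or oligodendrocytes was pulled down through a GFP tag, and whole spinal cord was profiled as well, in 52 libraries and 13 groups.

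Motor neurons at disease onset gave 4 SOD1 G37R and 4 Non-Tg libraries, and astrocytes at onset gave 4 SOD1 G37R and 6 Non-Tg libraries. The labels of these groups state no age. Oligodendrocytes at 8 months, also called onset, gave 4 SOD1 G37R and 5 Non-Tg libraries. Oligodendrocytes at 11 months, an early symptomatic stage, gave 3 SOD1 G85R, 3 SOD1 G37R and 5 Non-Tg libraries. Whole spinal cord gave 4 SOD1 G37R and 4 Non-Tg libraries at 8 months, and 3 of each at 11 months. Every onset library is labelled male, while each 11-month group mixes the sexes. The labels name neither the promoters of the SOD1 transgenes and of the tag, nor the number of animals behind a library, so each p-value speaks of variation among libraries, which may be technical. The extraction text that names the GFP pull-down is shared by the cord libraries.

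Neurons keep cytosolic calcium low with pumps and exchangers. SERCA pumps move it into the endoplasmic reticulum, while plasma membrane pumps and sodium-calcium exchangers move it out of the cell. Ryanodine and IP3 receptors let it out of the reticulum again, and calcium bound to calmodulin switches on the kinase CaMKII. Motor neurons are known for weak calcium buffering.

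RefSeq promoter windows (build GRCm38.p6, 250 bases before to 50 after a gene's start) were at hand for 6 of the 9 genes, with 9 windows in all. The windows of Camk2b and Slc8a2 are printed because, of the genes with a window, these had the lowest adjusted p in 11-month G37R oligodendrocytes. Capitals mark the GC box GGGCGG, searched on both strands, so its reverse complement CCGCCC is capitalised too.
Camk2b, minus strand, chr11:6065699-6065998: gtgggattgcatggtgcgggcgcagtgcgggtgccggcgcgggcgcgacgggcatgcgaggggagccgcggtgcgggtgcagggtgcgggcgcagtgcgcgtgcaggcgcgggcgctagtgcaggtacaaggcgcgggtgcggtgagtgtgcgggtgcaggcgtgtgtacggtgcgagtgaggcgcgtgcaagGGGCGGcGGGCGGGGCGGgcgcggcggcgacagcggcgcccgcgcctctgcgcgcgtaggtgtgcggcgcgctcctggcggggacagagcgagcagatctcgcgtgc
Slc8a2, plus strand, chr7:16129576-16129875: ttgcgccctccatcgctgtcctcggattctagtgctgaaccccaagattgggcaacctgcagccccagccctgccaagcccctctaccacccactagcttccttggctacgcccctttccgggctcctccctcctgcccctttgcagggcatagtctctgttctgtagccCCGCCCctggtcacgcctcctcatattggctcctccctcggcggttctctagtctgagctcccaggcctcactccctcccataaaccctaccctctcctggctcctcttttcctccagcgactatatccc
The Camk2b window holds the GC box 3 times on the sense strand, with 2 of them overlapping, and the Slc8a2 window holds it 1 time on the other strand. At least 1 GC box was in 7 of the 9 windows, against 35.7% of the 32851 windows in the table. The cAMP response element TGACGTCA, whose letters read the same on both strands, was in 0 of the 9 windows and in 1.79% of all windows. GC content was 77.3% in the Camk2b window and 61.3% in the Slc8a2 window, where the median over all windows was 52.7%. These matches describe the letters of the windows.

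Levels are in FPKM-equivalents, a measure scaled by transcript length, so genes can be set side by side within a library. The tables were normalized separately, so the order of cell types below is a description with no test. In Non-Tg motor neurons the reticulum pump gene Atp2a2 had the highest level of the 9, at 124 ± 7.76 (SD, n = 4). Camk2b, the beta subunit gene of CaMKII, followed at 95.8 ± 6.01, and the plasma membrane pump gene Atp2b2 was at 45.2 ± 2.78. Atp2b1, the more widely expressed plasma membrane pump gene, was at 13.8 ± 0.346, and the IP3 receptor gene Itpr1 at 10.1 ± 0.535. Camk2a, the alpha subunit gene, was at 6.42 ± 1.01. The exchanger genes Slc8a1 (3.23 ± 0.278) and Slc8a2 (2.01 ± 0.231) and the ryanodine receptor gene Ryr2 (2.14 ± 0.150) were lowest of the 9. Another sodium-calcium exchanger gene, Slc8a3, is not among the 9 and was at 14.9 ± 0.586 in these libraries. Among the genes at a mean of at least 1 in those libraries, Atp2a2 stood at the 90.9th percentile and Slc8a2 at the 11.6th.

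Among the Non-Tg groups, each of the 9 genes was highest in whole spinal cord at 8 months and second in whole cord at 11 months. For Camk2b the 11-month cord (101 ± 9.65, n = 3) overlapped with motor neurons, and for the other 8 genes no purified library reached a cord library. Motor neurons had the next highest mean for Atp2a2, Atp2b1, Atp2b2, Ryr2, Itpr1 and Camk2b. Their ranges overlapped with 8-month oligodendrocytes for Atp2a2 and with both oligodendrocyte ages for Ryr2, but not with any glial group for Atp2b1, Atp2b2, Itpr1 and Camk2b. For Slc8a1, Slc8a2 and Camk2a, oligodendrocytes lay above motor neurons by their means. Of these only Camk2a was without overlap, at 12.4 ± 2.70 (n = 5) and 11.4 ± 3.22 (n = 5) in 8-month and 11-month oligodendrocytes, against 6.42 ± 1.01 in motor neurons. The summed level of 6 interneuron markers was also higher in these oligodendrocyte libraries. It was 97.3 to 263 at 8 months and 122 to 195 at 11 months, against 57.9 to 74.6 in the motor neuron libraries. The part of interneuron RNA in the order for Camk2a was not tested. Astrocytes were lowest for 8 of the 9 genes. The exception was Itpr1, where astrocytes (4.30 ± 0.443, n = 6) overlapped with 8-month oligodendrocytes (3.605 ± 0.896), and 11-month oligodendrocytes had the lowest mean (3.53 ± 0.832). The 2 oligodendrocyte ages overlapped for every one of the 9 genes.

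Relative to the 8-month cord, the purified cells held very different shares of the 9 genes. Non-Tg motor neurons stood at 82.9% of the cord level for Camk2b, 68.4% for Itpr1 and 55.1% for Atp2a2, but at 13.9% for Camk2a and 11.9% for Ryr2. Non-Tg 8-month oligodendrocytes stood at 47.3% for Camk2b and 41.8% for Atp2a2, and at 8.44% for Ryr2. Non-Tg astrocytes stood at 29.1% for Itpr1, 22.7% for Atp2a2 and 3.13% for Ryr2. Ryr2 was thus the gene with the lowest share of its cord level in each of these 3 cell types. In bulk libraries, fewer cells of a type and less RNA per cell cannot be told apart.

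**Figure D1:**
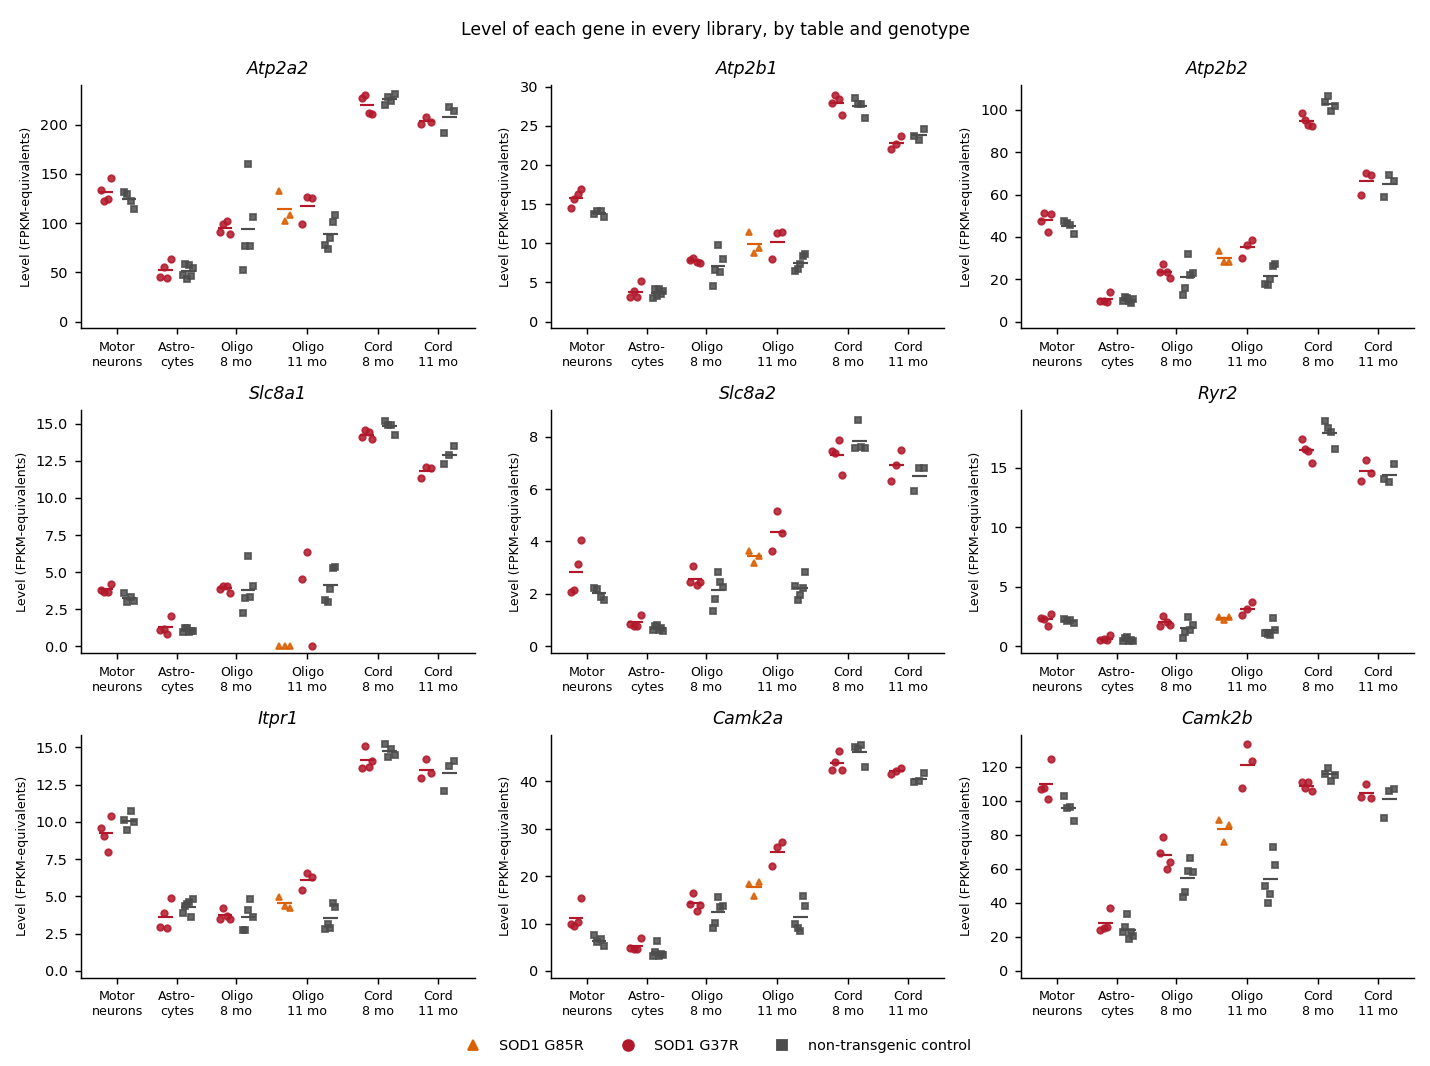
Level of each of the 9 genes in every library (FPKM-equivalents, linear axis), with mutant groups left of their controls within each of the 6 tables and horizontal bars at group means. Whole cord is highest for all 9 genes by the control means, and Slc8a1 is listed at 0 in all 3 G85R libraries and 1 G37R library of 11-month oligodendrocytes, where no mean is drawn.

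On the mm9 build used by the tables, Atp2a2 lies on chromosome 5 (122903521 to 122952234), Atp2b1 on chromosome 10 (98377785 to 98488777) and Atp2b2 on chromosome 6 (113695661 to 113992074). Slc8a1 lies on chromosome 17 (81772444 to 82137717), Slc8a2 on chromosome 7 (16715648 to 16745860) and Ryr2 on chromosome 13 (11645369 to 12199212). Itpr1 lies on chromosome 6 (108163089 to 108501110), Camk2a on chromosome 18 (61085285 to 61147806) and Camk2b on chromosome 11 (5869668 to 5965751).

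Marker genes were read for each labelled cell type. Summed motor neuron markers were 1956 to 2389 in G37R and 2194 to 2569 in Non-Tg motor neuron libraries, against at most 120 in any other purified library. Astrocyte markers summed to 7418 to 10354 in G37R and 5485 to 7957 in Non-Tg astrocyte libraries, against at most 1053 in the other purified libraries. Oligodendrocyte markers summed to 14227 to 37857 in the oligodendrocyte libraries and to 6077 to 9924 in the astrocyte libraries. Endothelial markers summed to at most 0.571 in any purified library, and to at least 37.9 in whole cord. Neuronal RNA was still present in the glial libraries, as none of 6 interneuron markers was listed at 0 in any of them. Over the 52 libraries the upper quartile of values above 0 lay between 19.9 and 24.9, and r across genes lay between 0.932 and 0.989 for pairs within a group. Mbp, which encodes myelin basic protein, was listed at 0 in Non-Tg replicate 1 of 11-month oligodendrocytes, so a value of 0 is not read as absence.

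In G37R motor neurons, Camk2a rose and none of the other 8 genes passed the test. Camk2a was at 9.81, 9.49, 10.3 and 15.5 in the G37R libraries, against 7.63, 6.01, 6.76 and 5.28 in the Non-Tg libraries. The lowest G37R library lay above the highest Non-Tg library, and replicate 4 was highest. The means were 11.3 ± 2.81 and 6.42 ± 1.01 FPKM-equivalents (SD, n = 4 each), a 1.75-fold ratio and a change of 0.71 on the log2(level + 1) scale (SE 0.15, adjusted p = 0.0227 by limma). So 1 of 9 genes rose, where 6.49% of the 12303 genes tested rose and 12.9% changed in either direction. By limma 4 of the 9 had an unadjusted p under 0.05, as did 3982 of the 12303 genes.

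Camk2a's call in motor neurons was lost with replicate number as a block, and it depended on single libraries. Without Non-Tg replicate 2, 3 or 4 its adjusted p was 0.0738, 0.0599 and 0.0608, and without G37R replicate 3 it was 0.0550, while its change ranged over 0.56 to 0.79 with 1 library left out. Interneuron markers moved with it. Their summed level was 77.1, 84.7, 132 and 139 in the G37R libraries, against 74.6, 57.9, 62.9 and 61.0 in the Non-Tg libraries. The groups did not overlap, and Gad2 and Pax2, 2 of the 6 markers, rose. With the 2 G37R libraries of highest sum, replicates 3 and 4, left out, Camk2a's change was 0.53 (adjusted p = 0.0471), where 261 of 12201 genes were called. The 2 G37R libraries kept, at 77.1 and 84.7, still lay above the highest Non-Tg sum of 74.6, so the groups in this fit still did not overlap in these markers. Microglial markers moved too, with 4 of 4 tested markers rising and a summed level of 16.5 to 39.7 in G37R against 5.01 to 7.24 in Non-Tg libraries. Of 6 astrocyte markers 1 rose (sums 114 to 253 in G37R and 52.1 to 87.0 in Non-Tg), of 6 oligodendrocyte markers 0 passed with 4 at an unadjusted p under 0.05 by limma (542 to 945 and 429 to 483, in the same order), and 2 of 7 motor neuron markers fell. The part of these cells in the Camk2a result was not tested.

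Atp2b1 and Slc8a1 also had G37R motor neuron libraries that all lay above the Non-Tg ones, without passing the test. Atp2b1 was at 14.5, 15.6, 16.3 and 16.9 in G37R, against 13.7, 14.1, 14.1 and 13.4 in Non-Tg libraries (0.18, SE 0.06, adjusted p = 0.0646). It passed without G37R replicate 1 (adjusted p = 0.0329). Slc8a1 was at 3.81, 3.66, 3.67 and 4.18 in G37R, against 3.58, 2.96, 3.31 and 3.07 in Non-Tg libraries (0.19, SE 0.07, adjusted p = 0.0936). Such a higher set was seen for 3 of the 9 genes and for 11.4% of all genes tested. Camk2b was at 110 ± 10.1 in G37R and 95.8 ± 6.01 in Non-Tg motor neurons (0.20, SE 0.07, adjusted p = 0.0799). Slc8a2 was at 2.05, 2.15, 3.15 and 4.05 in G37R, against 2.24, 2.18, 1.88 and 1.76 in Non-Tg libraries (0.32, SE 0.15, adjusted p = 0.163), and its 2 highest values were in the 2 libraries with the most interneuron RNA. Itpr1 was the only gene of the 9 with a lower mean in G37R (9.27 ± 1.01 against 10.1 ± 0.535, adjusted p = 0.327). The median change over the 9 genes was 0.18, against 0.01 over all genes tested.

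The 2 CaMKII subunit genes among the 9 differed in balance between cell types. Camk2a made up 9.19 ± 1.31% of the summed Camk2a and Camk2b level in G37R motor neurons and 6.25 ± 0.577% in Non-Tg motor neurons (n = 4 each). The G37R libraries spanned 8.11 to 11.03% and the Non-Tg libraries 5.65 to 6.91%. The share was 15.8 ± 0.742% in G37R and 13.8 ± 1.17% in Non-Tg astrocytes, with overlap. It was 17.2 to 17.5% by the means of the 11-month oligodendrocyte groups of all 3 genotypes. In whole cord at 8 months it was 28.7 ± 0.755% in G37R and 28.5 ± 1.19% in Non-Tg libraries. Ryr2 and Itpr1 are the 2 store release channel genes among the 9. Ryr2 as a share of their summed level was 19.7 ± 1.39% in G37R and 17.5 ± 0.925% in Non-Tg motor neurons. Other ryanodine and IP3 receptor genes do not enter this share. In 8-month whole cord that share was 53.8 ± 1.83% in G37R and 54.9 ± 1.18% in Non-Tg libraries. These shares were not tested.

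**Figure D2:**
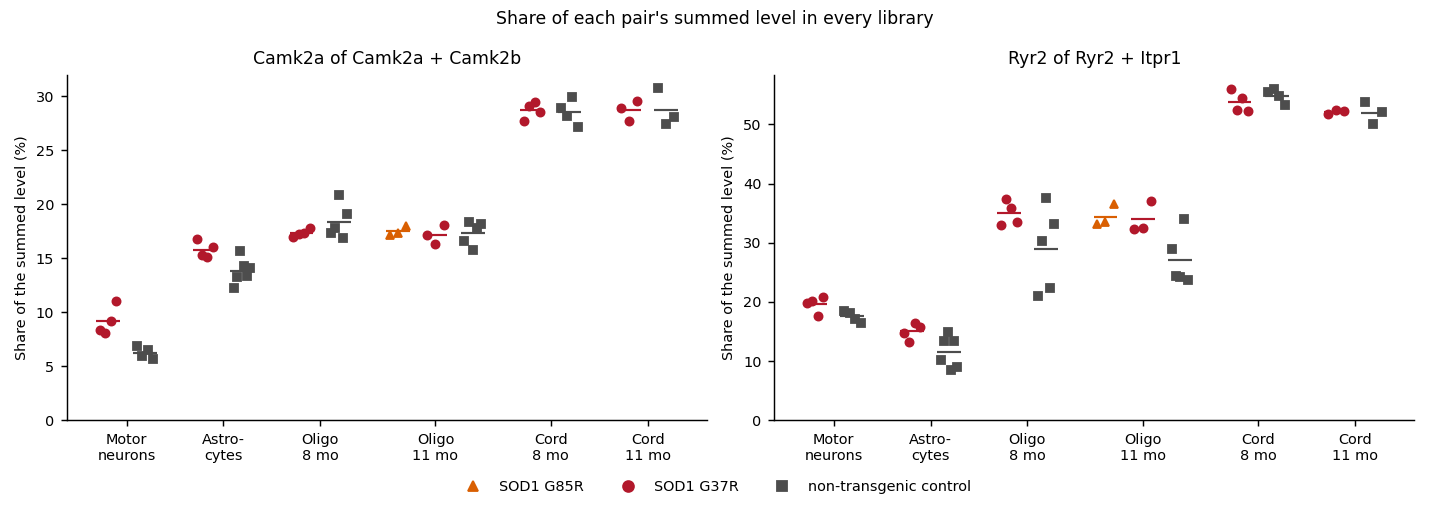
Camk2a as a share of Camk2a plus Camk2b (left) and Ryr2 as a share of Ryr2 plus Itpr1 (right) in percent, 1 point per library, bars at group means, mutant left of control. The Camk2a share is lowest in motor neurons, at 9.19% in G37R and 6.25% in Non-Tg by the means, and 28.7% in G37R against 28.5% in Non-Tg cord at 8 months.

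In astrocytes 0 of 7 genes tested passed in either direction, where 2.34% of 12466 genes did. By limma 1 of the 7, Camk2a, had an unadjusted p under 0.05, as did 2091 of the 12466 genes. Camk2a was at 4.81, 4.54, 4.66 and 7.04 in G37R astrocytes, against a lowest of 3.13, a median of 3.46 and a highest of 6.21 in the 6 Non-Tg libraries. The groups overlapped through 1 high Non-Tg library, replicate 3 (0.36, SE 0.16, adjusted p = 0.281). Itpr1 was at 2.93, 3.92, 2.85 and 4.89 in G37R, against a lowest of 3.64, a median of 4.40 and a highest of 4.80 in Non-Tg libraries (-0.21, SE 0.12, adjusted p = 0.423). None of the 7 had groups without overlap, where 5.24% of all genes did. G37R replicate 4 was the highest G37R library for all 9 genes, and its interneuron markers summed to 90.4, against 55.6 to 59.7 in the other G37R and 48.9 to 69.5 in the Non-Tg libraries. Without it 2 of 7 genes had a higher mean log level in G37R, against 6 of 7 with it. Ryr2 (0.644 ± 0.181 in G37R and 0.562 ± 0.143 in Non-Tg) and Slc8a2 (0.907 ± 0.205 and 0.687 ± 0.0894, in the same order) did not reach a mean of 1 and were not tested.

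In 8-month oligodendrocytes 0 of 9 genes passed, where 0.109% of 11935 genes did, and 0 of 9 had groups without overlap, where 4.43% of genes did. By limma 1 of the 9, Camk2b, had an unadjusted p under 0.05, as did 1279 of the 11935 genes. Camk2b was at 69.2, 78.7, 60.2 and 63.8 in G37R, against 43.4, 46.3, 58.9, 66.2 and 58.3 in Non-Tg libraries. It overlapped through Non-Tg replicate 4 (0.32, SE 0.13, adjusted p = 0.418). Atp2a2 showed the spread of the controls, at 91.2, 99.6, 102 and 88.8 in G37R against 52.2, 76.3, 160, 76.9 and 106 in Non-Tg libraries. Non-Tg replicate 3, the highest, also had the highest summed interneuron markers, 263 against 97.3 to 162 in the other Non-Tg and 158 to 197 in the G37R libraries. All 9 genes had a higher mean log level in G37R, and the median change was 0.20, against 0.01 over all genes.

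In 11-month G37R oligodendrocytes all 8 genes that could be tested rose, by 1.31 to 2.34 times in their means. The share of all 11733 genes that rose was 26.1%. The median change of the 8 was 0.71, against 0.00 over all genes tested. In G85R oligodendrocytes the same 8 genes had higher means than in Non-Tg ones, by 1.28 to 1.75 times, and 0 of 8 passed, where 0.00852% of genes did. By limma all 8 had an unadjusted p under 0.05 there, as did 3778 of the 11733 genes.

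The CaMKII subunit genes had the largest changes of the 8 on the log2(level + 1) scale, which understates low genes, while Ryr2 had the largest ratio of means (2.34, against 2.24 for Camk2b and 2.20 for Camk2a). Camk2b was at 88.7, 75.6 and 85.9 in G85R and 107, 133 and 123 in G37R, against 50.0, 40.1, 45.5, 73.0 and 62.2 in Non-Tg oligodendrocytes. The 3 groups formed 3 ranges without overlap, G37R the highest (G37R change 1.18, SE 0.17, adjusted p = 0.00142). Camk2a was at 18.4, 15.8 and 18.9 in G85R and 22.2, 26.1 and 27.2 in G37R, against 9.94, 9.02, 8.48, 15.8 and 13.8 in Non-Tg libraries. Here too the ranges did not overlap, with the lowest G85R library just above the highest Non-Tg one (G37R change 1.11, SE 0.18, adjusted p = 0.00180). In G85R the changes were 0.64 (SE 0.17, adjusted p = 0.0911) for Camk2b and 0.62 (SE 0.18, adjusted p = 0.0962) for Camk2a.

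The store channel genes rose in G37R oligodendrocytes as well. Ryr2 was at 2.46, 2.21 and 2.43 in G85R and 2.61, 3.17 and 3.69 in G37R, against 1.14, 1.004, 0.922, 2.36 and 1.33 in Non-Tg libraries. Every G37R library lay above every Non-Tg library, while G85R overlapped through Non-Tg replicate 4 (G37R change 0.85, SE 0.17, adjusted p = 0.00347). Itpr1 was at 4.96, 4.39 and 4.23 in G85R and 5.45, 6.59 and 6.28 in G37R, against 2.81, 3.13, 2.88, 4.57 and 4.28 in Non-Tg libraries (G37R change 0.66, SE 0.14, adjusted p = 0.00408). The G37R libraries again stood apart from both other groups.

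Of the genes for calcium removal, Slc8a2 was at 3.64, 3.19 and 3.46 in G85R and 3.64, 5.14 and 4.31 in G37R, against 2.31, 1.78, 1.94, 2.24 and 2.85 in Non-Tg libraries. Both mutant groups lay above the Non-Tg group (G37R change 0.73, SE 0.12, adjusted p = 0.00184). Atp2b2 was at 33.5, 28.4 and 28.1 in G85R and 29.99, 36.3 and 38.7 in G37R, against 17.7, 17.1, 20.3, 26.2 and 27.4 in Non-Tg libraries. The Non-Tg libraries closest to the mutants were replicates 4 and 5 (G37R change 0.68, SE 0.16, adjusted p = 0.00693). The pump genes Atp2a2 and Atp2b1 changed least. Atp2a2 averaged 117 ± 15.4 in G37R and 89.4 ± 14.8 in Non-Tg libraries (0.39, SE 0.14, adjusted p = 0.0429), and Atp2b1 averaged 10.2 ± 1.94 and 7.47 ± 0.976 in the same order (0.40, SE 0.13, adjusted p = 0.0312). Both overlapped, and both lost their call without G37R replicate 2 or 3 or Non-Tg replicate 1, 2 or 3 (adjusted p = 0.0794 to 0.153 for Atp2a2 and 0.0571 to 0.138 for Atp2b1). Atp2a2 also lost it under size factor scaling (0.0664) and with no filter on low values (0.0593). The other 6 kept theirs in each of these fits, so 6 to 8 of 8 genes rose whichever library was left out.

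Slc8a1 had a higher mean than the exchanger gene Slc8a2 in every Non-Tg group. In oligodendrocytes at 11 months it was listed at 0, 0 and 0 in G85R, and at 4.57, 6.33 and 0 in G37R, against 3.12, 2.99, 3.87, 5.26 and 5.36 in Non-Tg libraries. It was above 0 in all 41 libraries of the other tables. Among the genes of these 11 libraries, 102 with a median of at least 5 were listed at 0 in some library, so no fold or test is given with the zeros as listed. With the zeros taken as missing, a setting chosen after seeing the data, its G37R change was 0.35 (SE 0.22, adjusted p = 0.204).

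Groups without overlap were seen for 6 of the 8 tested genes in G37R against Non-Tg oligodendrocytes at 11 months, namely all but Atp2a2 and Atp2b1, where 24.0% of all genes were higher in this way. In G85R against Non-Tg they were Atp2b1, Atp2b2, Slc8a2, Camk2a and Camk2b, 5 of 8, where 12.2% of all genes were. Set directly against G37R, G85R libraries were lower without overlap for Ryr2, Itpr1, Camk2a and Camk2b, 4 of 8, where 10.5% of all genes were. None of the 8 passed the test between the mutants, where 0.0426% of genes did. Of the 8, 3 had an unadjusted p under 0.05 by limma, as did 1621 of all 11733 genes. Camk2b differed by -0.53 (SE 0.19, adjusted p = 0.281) and Camk2a by -0.48 (SE 0.20, adjusted p = 0.328). When libraries were weighted by their spread, Camk2a, Camk2b, Itpr1, Ryr2 and Slc8a2 passed as lower in G85R than in G37R (adjusted p = 0.0154 to 0.0439), in a fit that called 3717 of all 11733 genes, 2025 of them lower.

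**Figure D3:**
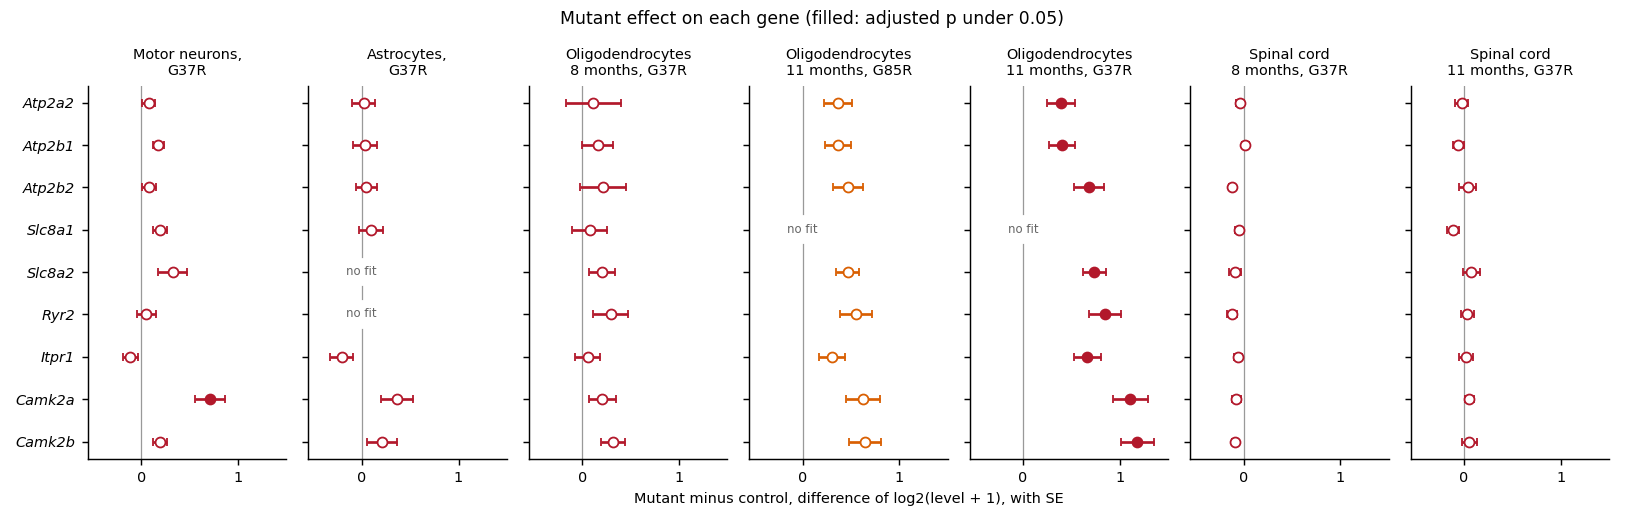
Mutant minus control for each gene in 7 comparisons, as a difference of log2(level + 1) with its SE, filled where the adjusted p is under 0.05. Filled points are Camk2a in motor neurons and all 8 tested genes in 11-month G37R oligodendrocytes, and "no fit" marks a gene below the minimum mean or with listed zeros.

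Neuronal markers rose in the same oligodendrocyte libraries. Of 6 interneuron markers 5 rose in G37R, among them Gad1, the GABA synthesis gene (97.8 ± 18.4 in G37R and 42.1 ± 10.3 in Non-Tg), and all 4 tested motor neuron markers rose. The interneuron sum was 244, 198 and 210 in G85R and 199, 305 and 283 in G37R, against 123, 122, 141, 195 and 192 in Non-Tg libraries. Motor neuron markers summed to 79.5 to 120 in G85R and 84.1 to 113 in G37R, against 56.8 to 71.8 in Non-Tg libraries. Of the 6 microglial markers 4 rose in G37R, with sums of 30.8 to 298 in G85R, 78.7 to 176 in G37R and 25.3 to 39.6 in Non-Tg libraries. Of the 6 astrocyte markers 2 rose, and 3 of the 6 oligodendrocyte markers fell. The part of these cells in the calcium gene results was not tested.

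**Figure D4:**
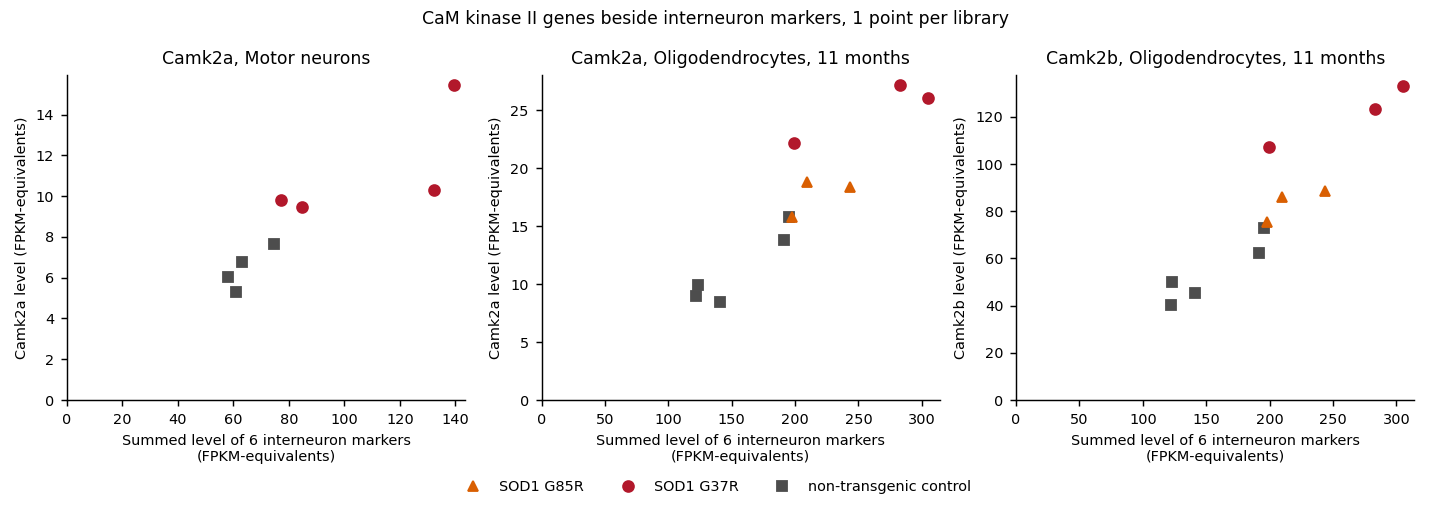
Level of Camk2a in motor neurons and of Camk2a and Camk2b in 11-month oligodendrocytes against the summed level of 6 interneuron markers, 1 point per library, all in FPKM-equivalents with axes from 0. Libraries with higher marker sums mostly have higher Camk2a and Camk2b, and the 3 G37R oligodendrocyte libraries lie at 199 to 305 on the marker axis.

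Whole spinal cord showed no call. At 8 months 0 of 9 genes passed, where 2.17% of 13828 genes did. Of the 9, 3 had an unadjusted p under 0.05 by limma, as did 2167 of the 13828. Atp2b2 was at 98.3, 95.02, 93.1 and 92.5 in G37R, against 104, 107, 99.6 and 102 in Non-Tg cord, with every G37R library below every Non-Tg one (-0.12, SE 0.03, adjusted p = 0.118). Camk2b was at 111, 107, 111 and 106 in G37R, against 116, 120, 112 and 115 in Non-Tg cord (-0.09, SE 0.03, adjusted p = 0.245). Such lower sets were seen for these 2 of 9 genes and for 5.03% of all genes. Ryr2 was at 16.5 ± 0.809 in G37R and 18.0 ± 1.02 in Non-Tg cord (-0.12, SE 0.05, adjusted p = 0.275). Microglial markers, 4 of 6 of which rose, summed to 364 to 588 in G37R and 201 to 248 in Non-Tg cord.

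At 11 months 0 of 9 genes passed in whole cord, where 0.0217% of 13839 genes did. Of the 9, 0 had an unadjusted p under 0.05 by limma, where 742 of the 13839 did. Slc8a1 was at 11.4, 12.1 and 12.0 in G37R, against 12.3, 12.9 and 13.5 in Non-Tg cord (-0.11, SE 0.06, adjusted p = 0.892), a lower set without overlap, as for 7.73% of all genes. The changes of the 9 genes ran over -0.11 to 0.08. From 8 to 11 months the G37R effect did not pass as different for any of the 9 (0.00% of 13590 genes did, 872 at an unadjusted p under 0.05, and 0 of the 9 genes by limma). Atp2b2 was the gene with the largest gap between the cord tables, at 94.7 ± 2.65 in G37R and 103 ± 2.99 in Non-Tg at 8 months and 66.5 ± 5.78 in G37R and 64.8 ± 5.57 in Non-Tg at 11 months, across tables normalized separately.

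The G37R effects were then set against each other. Camk2a's was higher in motor neurons than in 8-month whole cord by 0.78 (SE 0.17, adjusted p = 0.0214), and Camk2b's by 0.28 (SE 0.08, adjusted p = 0.0449), so 2 of 9 genes passed where 7.08% of 11968 genes did. Camk2a kept this call whichever library was left out (adjusted p = 0.0104 to 0.0476), a check chosen after seeing the data, while Camk2b lost it in 12 of 16 such fits (highest adjusted p = 0.0828). Atp2b1, Atp2b2, Slc8a1 and Slc8a2 passed in 1 or more of them, each without a single motor neuron library (lowest adjusted p = 0.0442, 0.0431, 0.0219 and 0.0407 in that order). Against astrocytes Camk2a's effect in motor neurons was 0.35 higher (SE 0.24, adjusted p = 0.410), and 0 of 7 genes passed where 2.83% of genes did. Of the 7, 0 had an unadjusted p under 0.05 by limma, where 2370 of 11380 genes did. Against 8-month oligodendrocytes Camk2a's effect in motor neurons was 0.50 higher (SE 0.22, adjusted p = 0.262), with 0 of 9 passing where 1.15% of genes did. Of the 9, 1 had an unadjusted p under 0.05 by limma, as did 1913 of 11304 genes. Between astrocytes and 8-month oligodendrocytes 0 of 7 genes passed, where 0.489% of genes did. Of the 7, 0 had an unadjusted p under 0.05 by limma, where 1637 of 11461 genes did. These tests do not show that the effects are alike.

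In oligodendrocytes the G37R effect was larger at 11 than at 8 months for Camk2a by 0.90 (SE 0.25, adjusted p = 0.0221), for Camk2b by 0.86 (SE 0.23, adjusted p = 0.0199) and for Itpr1 by 0.61 (SE 0.21, adjusted p = 0.0478). That is 3 of 8 genes, where 18.7% of 11551 genes passed. Without G37R replicate 2 or 3 of the 11-month group none of these 3 passed (adjusted p = 0.0585 to 0.123), and Itpr1 lost its call in further fits, under size factor scaling (0.0544) and a pseudocount of 0.1 (0.0569) among them. Slc8a2 (0.53, adjusted p = 0.0643) passed without Non-Tg replicate 1 at 8 months (0.0204), and Ryr2 without Non-Tg replicate 4 at 11 months (0.0440). The 8-month libraries were all male and the 11-month groups of both sexes, so age and sex cannot be told apart in this difference. With sex as a covariate within the 11-month table all 8 genes still rose in G37R.

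Other genes of the same machinery were read from a list of 73 in 8 classes. In G37R motor neurons 4 of 59 tested rose and 2 fell, where 798 and 784 of all 12303 genes did, so the list held no larger share of calls than all genes. Those that rose were kinase genes, namely Camk2d, the delta subunit of CaMKII (38.0 ± 2.70 in G37R and 31.7 ± 1.16 in Non-Tg, adjusted p = 0.0248), Camk1g (0.69, SE 0.17), Camk1 (0.25, SE 0.07) and the kinase-like gene Camkv (0.62, SE 0.15). Those that fell were Hpcal1, a calcium sensor of the visinin-like family (230 ± 20.8 in G37R and 296 ± 11.7 in Non-Tg, adjusted p = 0.0122), and Jph4, a junctophilin that ties the reticulum to the plasma membrane (57.3 ± 4.93 and 69.8 ± 2.37 in the same order). Jph4 was also the 1 gene of 66 tested that fell in 8-month G37R cord (33.5 ± 0.982 in G37R and 38.2 ± 1.09 in Non-Tg, -0.18, SE 0.03). In G37R astrocytes 1 of 59 rose, where 190 of all 12466 genes did. This was the calcineurin regulator gene Rcan1 (63.9 ± 0.963 in G37R and 53.8 ± 0.893 in Non-Tg astrocytes). Of 6 microglial markers 5 rose in the same comparison, with sums of 78.6 to 95.6 in G37R and 24.8 to 40.6 in Non-Tg libraries, and their part was not tested.

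In 11-month G37R oligodendrocytes 28 of 60 rose and 10 fell, where 3065 and 2685 of all 11733 genes did, and the median change over the 60 was 0.25. The 6 with the smallest adjusted p were Camkk1, the kinase of CaM kinases (62.0 ± 6.92 in G37R and 35.7 ± 3.72 in Non-Tg), Vdac1, a channel of the outer mitochondrial membrane (0.64, SE 0.08), Camk1g (0.99, SE 0.13), Camkv (1.15, SE 0.16), Camk2g, the gamma subunit of CaMKII (171 ± 23.9 and 82.9 ± 14.3, in the same order), and Ppp3ca, a catalytic subunit of calcineurin (0.62, SE 0.09). By class, 7 of 14 calmodulin and CaM kinase genes rose and 0 fell, 7 of 9 mitochondrial uptake genes rose and 1 fell, and 6 of 8 buffers and sensors rose and 1 fell. The 14 include Camk2d, which was listed at 0 in 1 G37R library. It was at 20.6 ± 18.3 in G37R and 17.8 ± 3.26 in Non-Tg libraries with that zero as listed (-0.89, SE 1.03). Its lack of a call is therefore not read as no change. Of 6 calcineurin genes 3 rose and 1 fell, and of 5 store-operated entry genes 2 rose and 2 fell. Of 5 further exchanger genes 1 rose (Slc8a3) and 0 fell, and of 3 further pump genes 1 rose and 0 fell. Of 10 partners of the store release channels, none of them a ryanodine or IP3 receptor gene, 1 rose (Jph3) and 5 fell (Casq1, Jph1, Jph4, Sri and Tmco1), while the receptor genes Ryr2 and Itpr1 rose as given above. Apart from Jph4, these partners were named after their values were seen. None of the list passed in 8-month oligodendrocytes, in G85R oligodendrocytes against Non-Tg or against G37R, or in 11-month cord. By limma 9 of 59, 22 of 60, 22 of 60 and 7 of 66 tested had an unadjusted p under 0.05 in that order. Over all genes these counts were 1279 of 11935, 3778 of 11733, 1621 of 11733 and 742 of 13839.

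Across the 13 group means, the genes whose log levels followed each of the 9 most closely had Pearson r of at least 0.99, apart from Slc8a1, whose listed zeros enter its means. Camk2a was followed most closely by Sema3f (r = 0.997), Sema5b and Nptx1, and Camk2b by Magee1 (0.996), Dcaf12l1 and Kifap3. Ryr2 was followed by Htt (0.998), Gabbr2 and Syne1, Itpr1 by Plxnc1 (0.993), Cdk14 and Luzp1, and Slc8a2 by Klhl14 (0.995), Kif1a and Syt13. The plasma membrane pump genes Atp2b1 (0.996) and Atp2b2 (0.994) shared Scn8a, a sodium channel gene, as their closest gene, and Atp2a2 had Abcc8 (0.995). Among the 9 themselves, Atp2b1 and Atp2b2 were closest (0.993), then Atp2a2 with Atp2b1 (0.989) and with Atp2b2 (0.984), and Camk2a with Slc8a2 (0.983). Camk2a and Camk2b followed each other less, at 0.766. All 13 points share libraries between genes and are spread mostly by the gap between whole cord and purified cells, so these values are a description.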

How the data were processed

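RNA-seq of 52 libraries (50 nt single reads, per the labels) was deposited by the authors as 6 tables of a value per gene and library. The mm9 build, TopHat2 2.0.8b, Cufflinks and Cuffdiff are named, without roles or settings, per the submitters' processing notes. For 11-month cord the authors deposited FPKM. In the remaining 5 tables the authors deposited a signal on a higher scale, and these values were divided by 16774, the median ratio of 8-month to 11-month cord over 13810 genes (10th to 90th percentile 13656 to 20475), to give FPKM-equivalents. That the factor holds for the tables of purified cells is an assumption, and the design had foreseen this step. Library depth is unknown, so no counting intervals are given.

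Genes with a table mean of at least 1 were tested on log2(value + 1), which understates changes of low genes, with limma 3.58.1 in R 4.3.3 (moderated variances with trend and robust estimation, 2-sided). P-values were adjusted by Benjamini-Hochberg over all genes of the comparison, with a threshold of 0.05. The method was tested on simulated data. The 11-month oligodendrocyte groups shared 1 fit, and differences of effects were contrasts in a joint fit of 2 tables. The named genes are the 9 members, up to 6 further calcium genes per comparison with the smallest adjusted p, and the 3 genes most like each member over the 13 group means. Slc8a3, and the partners of the store release channels other than Jph4, were named after their values were seen. The members, lists and rules were chosen with earlier results of these data known. Alternatives were pseudocounts of 0.1 and 5, other filters, size factors, sample weights, a replicate block, sex, and each library left out.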

Additional observations from a re-analysis of the deposited data

Results flagged for a closer look

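A library far from the others of its group was found in 9 of the 81 sets of values tested, where chance gives about 1 in 20. The measure is the gap to the nearest library divided by the range of the group. In G37R motor neurons Camk2a was highest in replicate 4 (15.5 against 10.3 in the nearest, gap 0.861). In astrocytes Camk2a was highest in Non-Tg replicate 3 (6.21 against 3.94, gap 0.738). G37R replicate 4 of astrocytes was far above its group for Atp2b2 (13.8 against 9.95, gap 0.870), Camk2a (7.04 against 4.81, gap 0.893) and Camk2b (36.9 against 26.1, gap 0.832), and it also had the highest interneuron marker sum of its table. In 8-month oligodendrocytes Slc8a2 was highest in G37R replicate 2 (3.07 against 2.46, gap 0.848), and in 11-month oligodendrocytes Ryr2 was highest in Non-Tg replicate 4 (2.36 against 1.33, gap 0.716). In 8-month Non-Tg cord Slc8a2 was highest in replicate 2 (8.62 against 7.62, gap 0.948) and Camk2a was lowest in replicate 4 (43.0 against 46.9, gap 0.830).

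The G37R effect differed between settings in 5 tests. It was higher in motor neurons than in 8-month whole cord by 0.784 for Camk2a and 0.284 for Camk2b on the log2 scale. It was higher in oligodendrocytes at 11 than at 8 months by 0.900 for Camk2a, 0.856 for Camk2b and 0.608 for Itpr1.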

How the results depend on the processing

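Of the calls on the 9 genes, Camk2a, Camk2b, Itpr1, Ryr2, Slc8a2 and Atp2b2 in 11-month G37R oligodendrocytes held under every alternative run in which they were tested. The other calls were lost where the report states it. Replicate numbers showed no steady pairing of the samples, as no comparison had a correlation above 0.1 for every same-numbered pair. With so few pairs per comparison, this check cannot exclude a pairing. With the replicate block 810 genes were called in motor neurons, 49 in astrocytes, 7 in 8-month oligodendrocytes, 0 for G85R and 2 for G85R against G37R in 11-month oligodendrocytes, and 91 in 8-month cord. Camk2a in motor neurons then had an adjusted p of 0.0679. The cause of these and the following shifts was not tested.

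In motor neurons the count of 1582 genes became 1026 with no filter and 261 without G37R 3 and 4. In astrocytes 292 became 522 with sample weights. In 8-month oligodendrocytes 13 became 6 at a minimum mean of 5 and 25 with sample weights. For G37R at 11 months 5750 became 8891 with sample weights. For G85R 1 became 96 with sample weights, 2 without trend and robust estimation, and 0 with a pseudocount of 5, no filter, sex as a covariate or zeros as missing. For G85R against G37R 5 became 3717 with sample weights and 3 in a fit of those 2 groups. In 8-month cord 300 became 135 at a minimum mean of 5, and in 11-month cord 3 became 1 with a pseudocount of 5 or zeros as missing. At a minimum mean of 5 the differences fell to 158 (motor neurons minus astrocytes, 322 before), 34 (motor neurons minus 8-month oligodendrocytes, 130 before) and 29 (astrocytes minus 8-month oligodendrocytes, 56 before), and 11-month minus 8-month cord gave 1 with a pseudocount of 0.1. Size factors gave 459 higher and 498 lower genes for motor neurons minus 8-month cord (524 and 323 before) and 99 and 88 for motor neurons minus 8-month oligodendrocytes (52 and 78).

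Leaving out 1 library gave 274 to 2136 genes in motor neurons, 138 to 296 in astrocytes, 7 to 17 in 8-month oligodendrocytes, 2805 to 6549 for G37R, 0 to 2 for G85R and 2 to 315 for G85R against G37R at 11 months, 80 to 482 in 8-month cord and 4 to 10 in 11-month cord. It gave 257 to 1736 for motor neurons minus cord and 752 to 3844 for 11-month minus 8-month oligodendrocytes, fits added after seeing the data.

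Signs turned only for genes that were not called in either fit. With sample weights these were Atp2a2 (-0.0245), Atp2b1 (-0.0187) and Atp2b2 (-0.0279) in astrocytes, and Atp2b2 (-0.0219), Camk2b (-0.0049) and Itpr1 (-0.0244) in 11-month cord. With size factors they were Atp2a2 (0.0122) and Atp2b1 (0.0076) for G85R against G37R, and Atp2b2 (-0.0068) for motor neurons minus astrocytes, where Camk2b was at 0.0065 with a pseudocount of 5. With 1 library left out, the ranges were -0.0109 to 0.14 for Ryr2 in motor neurons; in astrocytes -0.10 to 0.10 for Atp2b1, -0.0756 to 0.0933 for Atp2a2, -0.0662 to 0.10 for Atp2b2 and -0.0476 to 0.20 for Slc8a1; and in 8-month oligodendrocytes -0.0700 to 0.33 for Atp2a2, -0.0150 to 0.15 for Itpr1 and -0.0514 to 0.23 for Slc8a1. For G85R against G37R they were -0.14 to 0.0464 for Atp2a2 and -0.18 to 0.0506 for Atp2b1. In 8-month cord Atp2b1 ranged over -0.0076 to 0.0445. In 11-month cord they were -0.0334 to 0.11 for Atp2b2, -0.0418 to 0.0606 for Itpr1, -0.0118 to 0.0727 for Ryr2, -0.0263 to 0.10 for Camk2b and -0.0828 to 0.0090 for Atp2a2. For motor neurons minus 8-month cord Itpr1 ranged over -0.11 to 0.0066.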
